A study of Danio rerio with 21 samples.

Results

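The genes described here are those of the cytosolic ribosome of zebrafish (Danio rerio), taken from the deposited counts as every gene whose symbol starts with rpl or rps and continues with a number, with p and a number, or with a single closing a (as in rpsa), leaving out the kinase genes that start with rps6k. Of 36351 genes in the count table, 84 had such a symbol, and all 84 also reached at least 10 counts in at least 3 samples. They were 48 genes of the large subunit, 35 of the small subunit and rps19bp1, which the rule on symbols also took although it encodes a partner of Rps19 and not a ribosomal protein. Ribosomal genes with other symbols, such as faua, faub and rack1, are not among the 84. Measured values did not enter the rule beyond the minimum count, but these genes were chosen with earlier results of these data known.

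RNA was measured in pools of 4 to 6 whole larvae of the EK strain, 3 pools in each of 7 groups. At 10 days post fertilization (dpf) the groups were MZKO (pomgnt2-/-) and MHet (pomgnt2+/-), both from pomgnt2-/- mothers. At 5 dpf they were MZKO and MHet from pomgnt2-/- mothers, and ZKO (pomgnt2-/-), Het (pomgnt2+/-) and WT (pomgnt2+/+) from pomgnt2+/- mothers. The mutant line carries frameshifts in both coding exons of pomgnt2, a glycosyltransferase gene that acts on dystroglycan, and larvae were genotyped alive at 4 dpf before they were pooled. The KO x Het and Het x Het crosses gave the 2 kinds of mother, so mother and cross cannot be told apart. All 10 dpf pools were in batch 2 and all 5 dpf pools in batch 1, so age and batch cannot be told apart either. The 10 dpf larvae had been housed apart by genotype, so genotype and housing cannot be told apart at that age.

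A cytosolic ribosome is built from ribosomal RNA and one copy or a few copies of each ribosomal protein, and the subunits are assembled in the nucleolus before they are exported. Ribosomal protein mRNAs are among the most abundant of growing cells, and in vertebrates their translation depends on a pyrimidine tract at their start that responds to TOR signalling. Loss of single ribosomal proteins causes Diamond-Blackfan anaemia in humans, and in mammals free Rpl5 and Rpl11 bind Mdm2 and so stabilise p53. Some of these genes are widely used as references in quantitative PCR.

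Total counts per pool lay between 16959935 and 22439739, and a count of 3 equals at most 0.196 CPM (counts relative to the library total, here scaled by the TMM factors of edgeR). Counts per member were high, since 78 of the 84 had a mean of at least 5000 counts per pool. The lowest were rpl9 with a mean of 73.9 counts, rps19bp1 with 298 and rps8b with 320.1, and the highest totals over all pools belonged to rps2, rplp0 and rpsa. CPM values are not corrected for transcript length, so they compare a gene between pools and not one gene with another. pomgnt2 itself did not pass the test, with log2 fold changes of 0.28 ± 0.11 in MZKOs against MHets at 5 dpf (SE, edgeR adjusted p = 0.114), -0.08 ± 0.17 at 10 dpf (adjusted p = 0.837) and 0.09 ± 0.11 in ZKOs against WTs (adjusted p = 0.751), and its mRNA level is therefore no check of the genotype labels. Markers of fast muscle, liver, exocrine pancreas, intestine, lens and neurons were above 0 in every pool, whereas up to 3 of 5 erythrocyte markers were at 0.

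Ribosomal protein genes took 10.2, 9.23 and 9.61% of all counts in the 10 dpf MZKO pools, against 8.08, 9.22 and 9.94% in the 10 dpf MHet pools. At 5 dpf the shares were 6.44, 6.59 and 6.22% in MZKOs, against 7.33, 6.70 and 7.02% in MHets, and these groups did not overlap. Those of the Het x Het cross were 6.83, 6.88 and 5.91% in ZKOs, 7.16, 7.15 and 6.69% in Hets, and 7.08, 7.10 and 6.97% in WTs. The 10 dpf pools were all above the 5 dpf pools, with means of 9.69 ± 0.51% in MZKOs at 10 dpf against 6.41 ± 0.19% in MZKOs at 5 dpf, and 9.08 ± 0.94% in MHets at 10 dpf against 7.02 ± 0.31% in MHets at 5 dpf (SD, n = 3 each). A 95% Wilson interval on a single share was at most 0.0285 percentage points wide, and it covers counting error only. In bulk RNA, a change in the number of cells rich in ribosomal protein mRNA cannot be told apart from a change in the amount per cell.

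**Figure D1:**
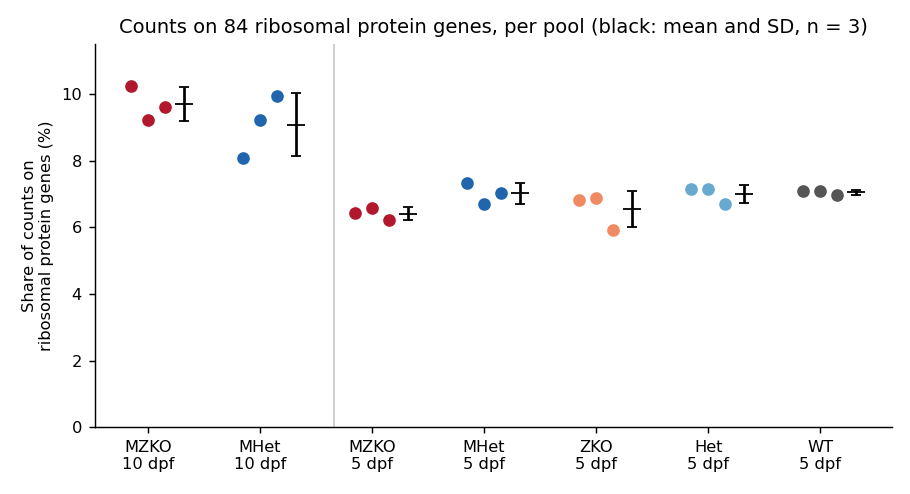
Share of each pool's counts on the 84 genes, in percent, with 1 point per pool and the mean and SD of 3 pools in black. The 6 pools at 10 dpf lie between 8.08 and 10.2% and the 15 pools at 5 dpf between 5.91 and 7.33%, and the 5 dpf MZKO pools (6.22 to 6.59%) lie below the 5 dpf MHet pools (6.70 to 7.33%).

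Some pools departed from their group. Among the 5 dpf pools, ZKO 3 was low for nearly all members together, with a median log2 difference of -0.26 from the other ZKO pools and a small spread over genes (SD 0.07 over 83 members, rpl9 left out for its low counts). WT 3 and MZKO 3 stood apart in another way, because single genes moved in opposite directions. In WT 3 the SD over members was 0.27 and in MZKO 3 it was 0.24, against 0.05 to 0.17 in the other 19 pools. For example, rps18 had 1180 CPM in WT 3 against 753 and 842 CPM in the other WT pools, while rpl27a had 272 CPM in WT 3 against 452 and 447 CPM. In MZKO 3, rps26 had 339 CPM against 241 and 243 CPM in the other MZKO pools, and rpl38 had 151 CPM against 245 and 242 CPM. The departures of WT 3 and MZKO 3 had a Pearson's r of 0.16 across the 83 members, which are not independent replicates. At 10 dpf, MHet 1 was low for most members, with a median log2 difference of -0.25 and the largest departure at rpl35a (-0.68).

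**Figure D2:**
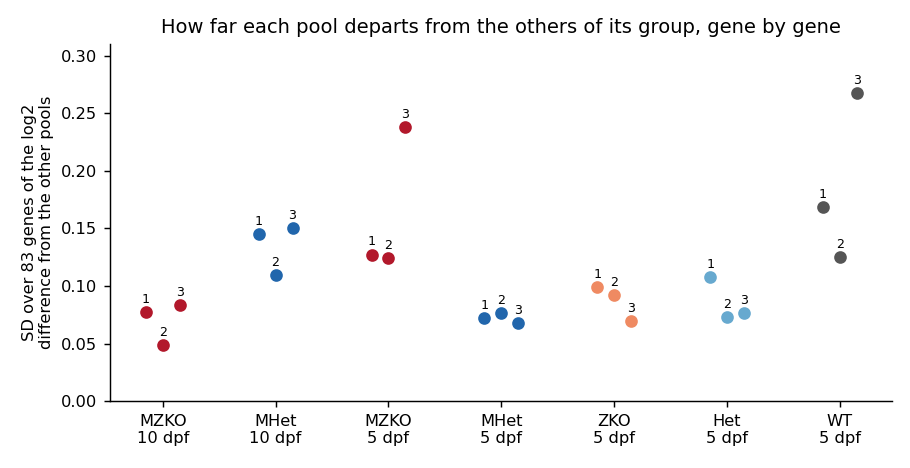
Spread of each pool's departure from the other pools of its group: the SD, over 83 genes, of the log2 difference between the pool's CPM and the mean log2 CPM of the other pools. Numbers are replicate numbers, and WT 3 (0.27) and MZKO 3 (0.24) at 5 dpf lie above the other 19 pools (0.05 to 0.17).

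The first comparison asked how larvae without their own functional pomgnt2 differed from their heterozygous siblings when the mother had none to supply. At 5 dpf, 13 of the 84 genes were lower in MZKOs than in MHets and none was higher, where 4.34% of all 24846 genes tested were called lower at the same threshold (edgeR's quasi-likelihood test, Benjamini-Hochberg adjusted p under 0.05). The differences were small and mostly in one direction. The median log2 fold change was -0.18 over the 84 genes and -0.01 over all genes tested, and 79 of the 84 values were below 0. With total counts in place of TMM the median of all genes moved by 0.07, from -0.01 to 0.05. The pools of the 2 groups did not overlap, with MZKOs lower, for 50 of the 84 genes, against 16.2% of all genes tested. No member met the study's stricter rule for a differentially expressed gene (DEG, adjusted p under 0.01 and absolute log2 fold change over 0.7), which 0.885% of all genes met.

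Of the genes that fell, rpl11 and rpl5b encode the proteins that join 5S ribosomal RNA in a complex before it enters the large subunit. The level of rpl11 was 734, 729 and 631 CPM in the MZKO pools, against 1029, 945 and 966 CPM in the MHet pools. Its groups did not overlap and its log2 fold change was -0.49 ± 0.09 (SE, edgeR adjusted p = 0.00133). For rpl5b the levels were 750, 795 and 687 CPM in MZKOs and 972, 927 and 903 CPM in MHets, a log2 fold change of -0.33 ± 0.09 (edgeR adjusted p = 0.0147). Its paralog rpl5a did not pass, with 759, 791 and 850 CPM in MZKOs and 928, 880 and 857 CPM in MHets (log2 fold change -0.15 ± 0.08, edgeR adjusted p = 0.255). Reads of such paralogs may have been divided between them by the counting, whose handling of multi-mapping reads is not given in the sources used here.

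Another 6 large subunit genes fell. rpl6 had 1329, 1385 and 1194 CPM in MZKOs, against 1872, 1689 and 1648 CPM in MHets (log2 fold change -0.42 ± 0.09, edgeR adjusted p = 0.00429). The level of rpl35a, a gene mutated in some patients with Diamond-Blackfan anaemia, was 568, 594 and 487 CPM in MZKOs and 782, 698 and 743 CPM in MHets (-0.43 ± 0.09, edgeR adjusted p = 0.00431). In both genes every MZKO pool was below every MHet pool, and the same was true of the genes rpl35 and rpl23a, whose proteins sit at the exit of the peptide tunnel. rpl35 had 697, 707 and 600.5 CPM in MZKOs and 916, 832 and 851 CPM in MHets (-0.38 ± 0.09, edgeR adjusted p = 0.0069). rpl23a (-0.42, adjusted p = 0.0163), rpl7a (-0.34, adjusted p = 0.0236) and rpl32 (-0.36, adjusted p = 0.0345) completed the 8 of 48 large subunit genes called, and the median over the large subunit was -0.22.

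In the small subunit 5 of 35 genes fell and the median was -0.16. rps25, which in human cells and yeast is needed for initiation on several viral internal entry sites, had 736, 755 and 634 CPM in MZKOs and 983, 888 and 908 CPM in MHets (log2 fold change -0.39 ± 0.09, edgeR adjusted p = 0.00832). rps27a, whose product is made as a fusion with ubiquitin, had 1223, 1269 and 1095 CPM in MZKOs, against 1618, 1458 and 1510 CPM in MHets (-0.36 ± 0.09, edgeR adjusted p = 0.0151). Neither gene had overlapping groups. rps27.2 (-0.35, adjusted p = 0.0282) and rps15 (-0.30, adjusted p = 0.0467) were also called, and rps27.1, the paralog of rps27.2, was not (-0.14 ± 0.10, adjusted p = 0.389).

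**Figure D3:**
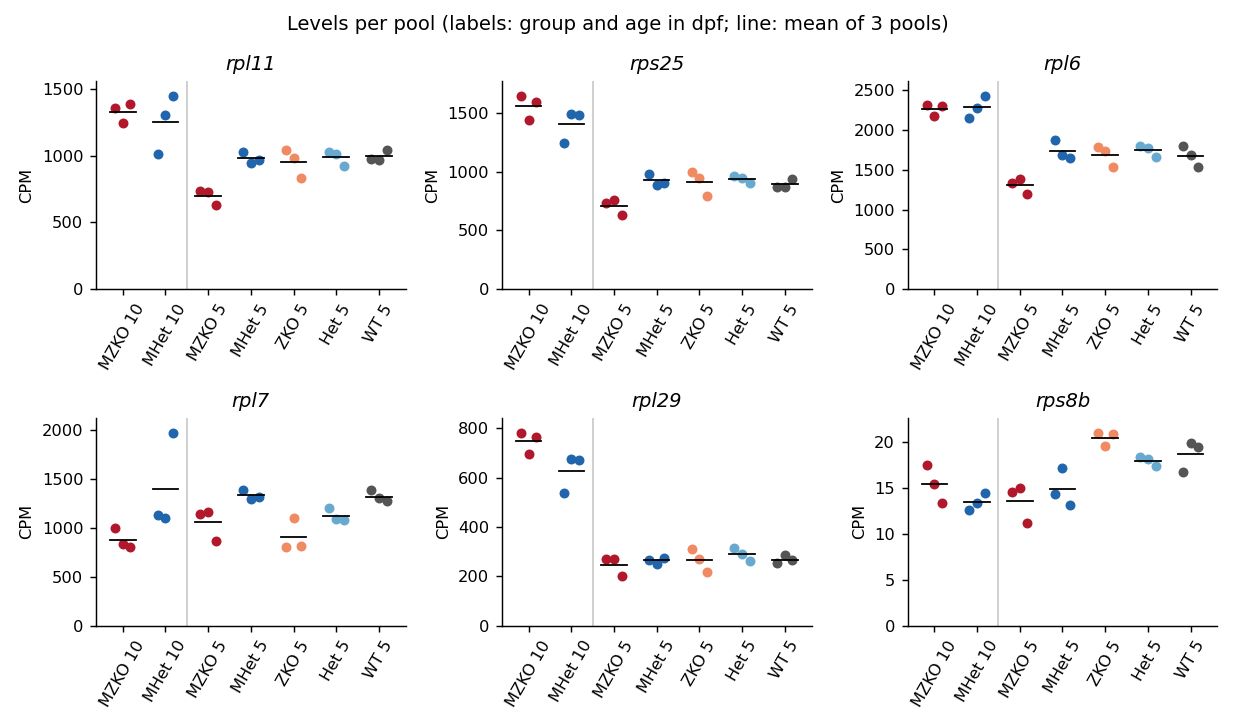
CPM of 6 genes in every pool, by group and age in dpf, with the mean of 3 pools as a line and axes starting at 0. In the panels of rpl11, rps25 and rpl6 the 5 dpf MZKO pools lie below every other pool, with rpl11 at 631 to 734 CPM in MZKOs and 945 to 1029 CPM in MHets.

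Just outside the threshold was rpl13a, which the study used as the reference gene of its quantitative PCR for pomgnt2. The study's methods describe that PCR for Het x Het crosses, and not for MZKOs or MHets. The study's PCR arrays of 5 dpf larvae, MHets and MZKOs among them, were instead scaled to the mean of acta1b, hprt1, nono and rpl13a. rpl13a had 691, 743 and 667 CPM in the 5 dpf MZKO pools, against 909, 819 and 825 CPM in the MHet pools (log2 fold change -0.29 ± 0.09, edgeR adjusted p = 0.0504). Of the other genes often used as references, the ribosomal stalk gene rplp0 had 2154, 2253 and 2237 CPM in MZKOs and 2386, 2250 and 2091 CPM in MHets, a log2 fold change of -0.02 ± 0.10 (edgeR adjusted p = 0.928). None of the 5 reference genes examined (rpl13a, rps18, rplp0, rpl8 and rps23) was called in this comparison. The genes with the most counts were not called either, with rps2 at 2359, 2455 and 2568 CPM in MZKOs and 2842, 2597 and 2549 CPM in MHets (-0.12 ± 0.08, edgeR adjusted p = 0.437) and rpsa at -0.06 ± 0.09 (adjusted p = 0.751). rpl9, at 3.37, 1.98 and 2.09 CPM in MZKOs and 4.00, 3.97 and 3.87 CPM in MHets, had the lowest fold change of the 84 genes and did not pass (-0.67 ± 0.26, edgeR adjusted p = 0.108). Of 12 genes linked to p53 or Diamond-Blackfan anaemia 3 fell (rpl11, rpl35a and rpl5b) and 0 rose, and of 25 paralogs and variants 3 fell and 0 rose.

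The count of 13 depended on single pools and on the fit. Without MHet 1 it was 3 and without MZKO 3 it was 6, and each of the other 4 pools left out gave 9 to 13. Without MZKO 3 and WT 3 together, a choice made after the data were seen, 14 of the 84 genes were lower and 0 higher. In that fit 1131 of 25208 genes tested were called lower. Of the member values 79 were below 0, and the median was -0.16. Of those 14, 10 were also among the 13. rps27.2 (adjusted p = 0.0519), rpl32 (0.118) and rps15 (0.174) were no longer called, and rpl27a (0.00569), rps9 (0.0196), rpl18 (0.0327) and rps7 (0.0494) were. rpl11, rpl6 and rpl35a were called with any 1 of the 6 pools left out. DESeq2 called 27 members lower, and the share of all genes that it called lower is not given here. Summed markers of several tissues also differed between these pools. Fast muscle markers came to 40466 to 44037 CPM in MZKOs and 44306 to 49722 CPM in MHets (5 of 5 genes below 0 on the log2 scale, 3 called lower). Lens markers came to 802 to 913 CPM in MZKOs and 1047 to 1295 CPM in MHets (2 of 5 called lower). Neuron markers came to 1107 to 1193 CPM in MZKOs and 1268 to 1303 CPM in MHets (1 of 5 called lower). Exocrine pancreas markers came to 390 to 736 CPM in MZKOs and 583 to 1511 CPM in MHets. All 6 of them were below 0 (median log2 fold change -1.04), and 0 were called. No marker of liver or intestine was called. The part of these tissues in the 5 dpf result was not tested.

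Genes that work with the ribosome were read from the same fit, in which 4.34% of all genes were called lower. Of 86 genes of ribosome biogenesis, which process ribosomal RNA and assemble the subunits, 27 (31.4%) fell and 0 rose in MZKOs against MHets at 5 dpf (median log2 fold change -0.26). The lowest adjusted p values belonged to dkc1, the pseudouridine synthase of small nucleolar particles (-0.69 ± 0.09, edgeR adjusted p = 4.63e-05), and nop56, a core protein of box C/D particles (-0.56 ± 0.08, edgeR adjusted p = 7.77e-05). Of 33 other translation genes listed for a start tract like that of ribosomal protein mRNAs, 8 (24.2%) fell and 0 rose, among them pabpc1a, the cytoplasmic poly(A) binding protein (-0.48 ± 0.09, edgeR adjusted p = 0.00192). Of 34 initiation factor genes 10 fell and 1 rose, with eif5b, which joins the subunits, at -0.64 ± 0.09 (edgeR adjusted p = 5.36e-05) and eif5a2 at 0.50 ± 0.09 (edgeR adjusted p = 0.000798). Of 76 genes of the mitochondrial ribosome 3 (3.95%) fell and 0 rose (median -0.18), a share near that of all genes. Of 16 p53 target genes 2 fell, sesn1 and gadd45ab, and 0 rose. Of 16 proliferation genes none was called (median 0.13). Among 27 genes of TOR signalling 5 fell and 1 rose, and eif4ebp3l, an inhibitor of cap-dependent initiation, had the lowest adjusted p (-0.96 ± 0.11, edgeR adjusted p = 7.51e-06). The low ribosome biogenesis values are relative to MHets. Against ZKOs, 8 genes of that list were higher and 9 lower in MZKOs (median 0.08). In MHets against Hets 32 of them were higher and 0 lower (median 0.27).

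MZKOs were also set against ZKOs, which have the same genotype but a heterozygous mother. This comparison shares the MZKO pools with the one above and so is no separate evidence. In it 15 of the 84 genes were lower in MZKOs and 0 higher, where 11.9% of all genes tested were called lower, and the median was -0.13. The pools did not overlap, with MZKOs lower, for 13 of the 84 genes (15.5%), a smaller share than among all genes tested (4863 of 24846). rpl11 had 1042, 981 and 833 CPM in ZKOs, above all 3 MZKO pools (log2 fold change -0.45 ± 0.09, edgeR adjusted p = 0.000931). rps8b, a paralog of rps8a with few counts, had 14.5, 14.9 and 11.2 CPM in MZKOs and 20.9, 19.5 and 20.9 CPM in ZKOs (-0.59 ± 0.13, edgeR adjusted p = 0.00142). Its groups did not overlap. rps27l, whose human counterpart is induced by p53, had 21.5, 26.8 and 18.2 CPM in MZKOs and 38.3, 33.2 and 25.8 CPM in ZKOs (-0.55 ± 0.14, edgeR adjusted p = 0.00562), and here the groups overlapped. rpl6 (-0.37) and rps25 (-0.37) were the next by p. The count was 6 without ZKO 1, 9 without ZKO 2 (8 lower and 1 higher), 22 without ZKO 3 and 8 without MZKO 3 (7 lower and 1 higher), and with total counts in place of TMM it was 9, of which 2 were higher. Without WT 3 and MZKO 3 together 10 genes were lower and 1, rpl7, was higher (log2 fold change 0.35, edgeR adjusted p = 0.0189). In that fit 2729 of 25208 genes tested were called lower and 2704 higher. Of these 11 members, 9 were also among the 15. Tissue markers differed between these pools as well. Summed lens markers were 802 to 913 CPM in MZKOs and 1539 to 2036 CPM in ZKOs and neuron markers 1107 to 1193 CPM in MZKOs and 1490 to 1633 CPM in ZKOs, with 5 of 5 genes called lower in each list. Fast muscle markers were 40466 to 44037 CPM in MZKOs and 42438 to 45182 CPM in ZKOs (3 of 5 called lower), and liver markers 1525 to 2667 CPM in MZKOs and 1535 to 1687 CPM in ZKOs (2 of 5 called higher). Exocrine pancreas markers were 390 to 736 CPM in MZKOs and 975 to 1543 CPM in ZKOs. All 6 of them were below 0 (median log2 fold change -1.24), and 0 were called. Of 86 ribosome biogenesis genes 8 (9.30%) were higher and 9 (10.5%) lower (median 0.08). Of 33 other translation genes 1 was higher and 9 (27.3%) lower, and of 34 initiation factor genes 2 were higher and 7 (20.6%) lower. Of all 24846 genes tested 2930 were called higher and 2963 lower. Of 16 proliferation genes 8 were lower and 0 higher (median -0.30). The part of the tissue markers and proliferation genes was not tested.

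For heterozygous larvae the mother's genotype was tested in MHets against Hets. No member was called (edgeR, with 2 at an unadjusted p under 0.05, and 0 by DESeq2), where 16.9% of all genes tested were called in either direction. The gene nearest to a call was rpl7, with 1386, 1288 and 1312 CPM in MHets and 1197, 1089 and 1074 CPM in Hets (log2 fold change 0.25 ± 0.11, edgeR adjusted p = 0.137), and it was called higher when only these 2 groups were fitted. rps8b (-0.27 ± 0.13, adjusted p = 0.157) and rpl7l1 (0.22 ± 0.11, adjusted p = 0.192) came next. The genes that fell in MZKOs had values near 0 here, such as rps25 at -0.01 ± 0.09 and rpl35a at -0.01 ± 0.09. In the same comparison 32 of 86 ribosome biogenesis genes rose and 0 fell (median 0.27), and 17 of 76 mitochondrial ribosome genes rose and 0 fell (median 0.26), where 8.19% of all genes rose. mybbp1a, a nucleolar protein gene, had the lowest adjusted p among the biogenesis genes (0.67 ± 0.09, edgeR adjusted p = 1.71e-05) and mrpl12 among the mitochondrial ones (0.87 ± 0.10, edgeR adjusted p = 3.96e-06). Summed lens markers were 1047 to 1295 CPM in MHets and 1666 to 2028 CPM in Hets (5 of 5 called lower), and 3 of 5 neuron markers were called lower. Exocrine pancreas markers were 583 to 1511 CPM in MHets and 1073 to 2706 CPM in Hets (6 of 6 below 0, 0 called). Their part was not tested.

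Whether the own genotype had a different effect under the 2 kinds of mother was tested as an interaction, the difference between MZKO minus MHet and ZKO minus Het. No member passed (edgeR, with 8 at an unadjusted p under 0.05, and 2 by DESeq2), where 2.61% of all genes tested were called. The lowest adjusted p was that of rpl11 (-0.45 ± 0.13, edgeR adjusted p = 0.0636), followed by rpl6 (-0.37 ± 0.13, adjusted p = 0.12) and rps25 (-0.36 ± 0.13, adjusted p = 0.142). rpl11 was called without ZKO 3.

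In the Het x Het cross the question was what loss of the own pomgnt2 did when the mother supplied it. 2 of the 84 genes were lower in ZKOs than in WTs and 0 higher, where 2.66% of all genes tested were called lower, so the share of members called was near that of all genes. rpl7, a large subunit gene, had 799, 1098 and 809 CPM in ZKOs, against 1383, 1299 and 1267 CPM in WTs (log2 fold change -0.54 ± 0.11, edgeR adjusted p = 0.0106). ZKO 2 was well above the other ZKO pools, yet no ZKO pool reached a WT pool. rps27.1 had 412, 437 and 332 CPM in ZKOs and 479, 495 and 529 CPM in WTs (-0.34 ± 0.10, edgeR adjusted p = 0.0424). None met the DEG rule, which 0.547% of all genes met. These calls were fragile: none was left without WT 1, without ZKO 1 or without ZKO 3, 1 was left without WT 2 or without WT 3, and 3 were called without ZKO 2. Without WT 3 and MZKO 3 together, rpl7 (-0.56, edgeR adjusted p = 0.00116) and rps6 (-0.28, edgeR adjusted p = 0.0493) were called lower. In that fit 1376 of 25208 genes tested were called lower. Summed liver markers were 1535 to 1687 CPM in ZKOs and 2231 to 5061 CPM in WTs (2 of 5 called lower), fast muscle markers 42438 to 45182 CPM in ZKOs and 38029 to 39379 CPM in WTs (0 of 5 called) and neuron markers 1490 to 1633 CPM in ZKOs and 1240 to 1478 CPM in WTs (2 of 5 called higher). Their part was not tested.

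Hets were compared with WTs of the same cross, and the WT pools are those used above. No member was called (edgeR, 0 at an unadjusted p under 0.05, and 0 by DESeq2), where 0.00402% of all genes tested, a single gene, was called. The lowest adjusted p was 0.427, for rpl7 (-0.23 ± 0.11), followed by rpl7l1 (-0.21 ± 0.11, adjusted p = 0.45). Without WT 3 and MZKO 3, 293 of 25208 genes were called higher and 453 lower in this comparison, and still 0 members.

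The own genotype was compared again at 10 dpf under the same kind of mother. No member was called between MZKOs and MHets (edgeR, with 2 at an unadjusted p under 0.05, and 1 by DESeq2), where 1.67% of all genes tested were called and 0.0424% (10 of 23597) met the DEG rule. The study itself, using DESeq2, reported far more DEGs for this comparison, with muscle and lipid genes among them. The few calls of this fit therefore do not show that little changed at 10 dpf. The median over the 84 genes was 0.03, and 50 values were above 0 and 34 below. rpl11 had 1359, 1243 and 1383 CPM in MZKOs and 1014, 1303 and 1443 CPM in MHets, a log2 fold change of 0.08 ± 0.15 (edgeR adjusted p = 0.787) with the MZKO pools inside the range of the MHet pools. rpl7 was lowest, at 992, 830 and 801 CPM in MZKOs and 1126, 1098 and 1964 CPM in MHets (-0.68 ± 0.22, edgeR adjusted p = 0.143), and MHet 3 was far above the other pools. It was followed by rplp2 of the ribosomal stalk (0.29 ± 0.12, adjusted p = 0.195) and rpl29 (0.25 ± 0.13, adjusted p = 0.304). The error of single genes was larger at this age, as for rpl11 with an SE of 0.15 at 10 dpf against 0.09 at 5 dpf. Ribosome biogenesis, initiation factor, mitochondrial ribosome, TOR and p53 target lists had 0 genes called. Summed liver markers were 283 to 589 CPM in MZKOs and 1436 to 3405 CPM in MHets (0 of 5 genes called). Fast muscle markers were 33683 to 38088 CPM in MZKOs and 41778 to 47103 CPM in MHets (0 of 5 called). Exocrine pancreas markers were 1043 to 3036 CPM in MZKOs and 4947 to 6392 CPM in MHets (0 of 6 called). Intestine markers were 215 to 472 CPM in MZKOs and 602 to 980 CPM in MHets (1 of 5 called lower). Neuron markers were 1639 to 1720 CPM in MZKOs and 1243 to 1603 CPM in MHets (0 of 5 called), and lens markers overlapped (0 of 5 called). Of 2 erythrocyte markers tested 1 was lower. The part of these tissues was not tested.

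**Figure D4:**
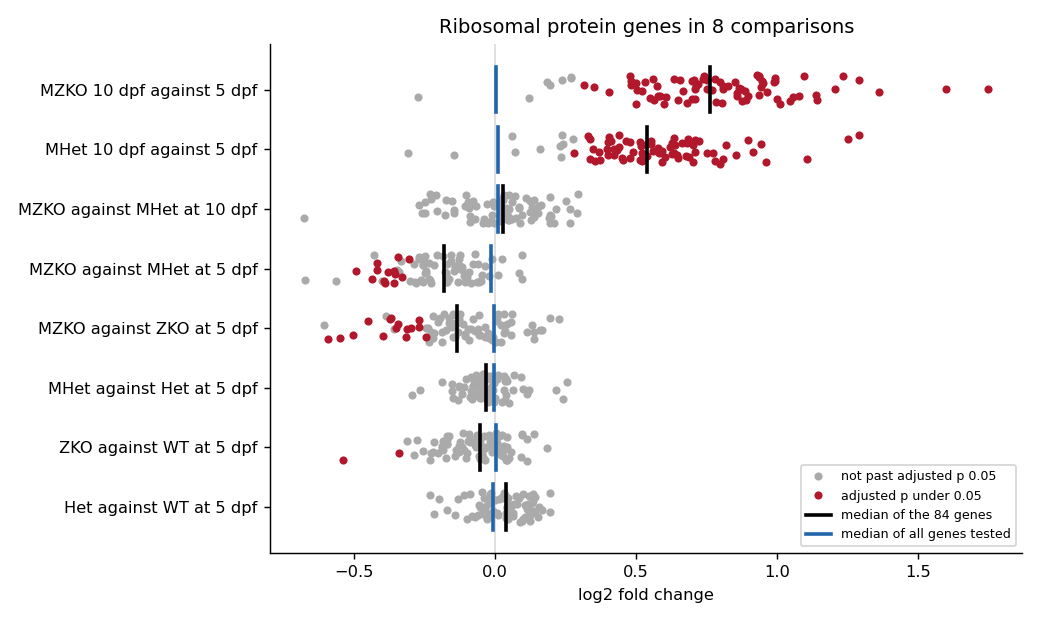
Log2 fold change of each of the 84 genes in 8 comparisons, red where the edgeR adjusted p was under 0.05, with the median of the 84 genes in black and that of all genes tested in blue. The medians of the 84 genes are 0.76 and 0.54 in the age comparisons and -0.18 in MZKOs against MHets at 5 dpf, while those of all genes lie within 0.02 of 0.

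Of the comparisons made, those between the ages called most members. In MZKOs 77 of the 84 genes were higher at 10 dpf than at 5 dpf and 0 lower, where 22.0% of all 25346 genes tested were called higher, and 51 met the DEG rule, against 8.08% of all genes. In MHets 74 were higher and 0 lower, where 19.4% of all genes were called higher, and 19 met the DEG rule, against 7.20%. The medians were 0.76 in MZKOs and 0.54 in MHets, and 0.00 and 0.01 over all genes. With total counts in place of TMM the median of all genes moved by -0.11 in MZKOs and -0.16 in MHets. In MZKOs the 10 dpf pools were all above the 5 dpf pools for 80 of the 84 genes, where the same was true of 26.5% of all genes tested. In MHets it was so for 70 genes, where the share of all genes was 25.4%, and 1 gene, rpl27a, did not overlap in the other direction.

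Markers of several tissues also moved with age. In MZKOs the summed CPM at 10 dpf against 5 dpf was 1043 to 3036 against 390.0 to 736 for exocrine pancreas (5 of 6 genes called higher), 2567 to 2865 against 802 to 913 for lens (4 of 5 higher), 1639 to 1720 against 1107 to 1193 for neurons (5 of 5 higher) and 283 to 589 against 1525 to 2667 for liver (4 of 5 lower), and 3 of 5 intestine markers were lower. In MHets it was 4947 to 6392 against 583 to 1511 for exocrine pancreas (6 of 6 higher) and 2186 to 3566 against 1047 to 1295 for lens (5 of 5 higher), while 0 of 5 liver markers were called. Neuron markers in MHets were 1243 to 1603 against 1268 to 1303 CPM, with 2 of 5 genes called higher and 3 below 0. In MHets 2 of 5 intestine markers were called higher. Of 5 fast muscle markers 2 were called lower in each genotype, and 1 was called higher in MZKOs. Both erythrocyte markers with enough counts to be tested were lower at 10 dpf in both genotypes. The part of these tissues in the result was not tested.

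Of the single genes, rpl29, a basic protein of the large subunit, had the lowest adjusted p in both genotypes. It had 781, 695 and 767 CPM in MZKOs at 10 dpf and 269, 271 and 201 CPM at 5 dpf (log2 fold change 1.60 ± 0.13, edgeR adjusted p = 6.14e-10). In MHets it had 538, 676 and 671 CPM at 10 dpf and 267, 251 and 275 CPM at 5 dpf (1.25 ± 0.12, edgeR adjusted p = 3.9e-08). No pool of the older larvae came near those of the younger ones. rpl36a rose by 1.23 ± 0.10 in MZKOs (edgeR adjusted p = 1.46e-09) and by 0.96 ± 0.10 in MHets (edgeR adjusted p = 8.92e-08), and rpl21 by 1.09 ± 0.10 in MZKOs and 0.90 ± 0.10 in MHets. In the small subunit rps25 rose by 1.14 ± 0.10 in MZKOs and rps28 by 1.11 ± 0.13 in MHets. All 5 reference genes rose in both genotypes, among them rpl13a by 0.48 ± 0.11 in MZKOs (edgeR adjusted p = 0.000891) and 0.37 ± 0.11 in MHets (edgeR adjusted p = 0.00906).

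Some members were not called with age, although most of them had values above 0. In MZKOs the genes not called were rpl3, rpl7, rpl10a, rpl27a, rps3, rps6 and rps8b, and in MHets they were rpl7, rpl7a, rpl9, rpl10a, rpl27a, rpl35a, rps8b, rps19bp1, rps27.2 and rps27l. Of these, only rpl7 in MZKOs and rpl27a and rps8b in MHets had log2 fold changes below 0. rpl27a in MHets had 300.2, 335 and 356 CPM at 10 dpf and 446, 384 and 397 CPM at 5 dpf, a log2 fold change of -0.31 ± 0.15 that did not pass (edgeR adjusted p = 0.117). rps6, whose protein is phosphorylated downstream of TOR, had 1304, 1245 and 1225 CPM in MZKOs at 10 dpf and 1046, 1059 and 1195 CPM at 5 dpf (0.19 ± 0.11, edgeR adjusted p = 0.172). MZKO 3 is the high pool at 5 dpf for this gene, and every 10 dpf pool was above it. Outside the 84, faub, whose product is a fusion of a ubiquitin-like protein and a small subunit protein, fell by 0.57 in MZKOs (SE 0.16, edgeR adjusted p = 0.00501) and by 0.67 in MHets (SE 0.16, edgeR adjusted p = 0.00149).

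Lists of ribosome biogenesis, mitochondrial ribosome, initiation factor and other translation genes also had more genes called higher than lower at 10 dpf. In MZKOs 67 of 86 ribosome biogenesis genes rose and 2 fell, 63 of 76 mitochondrial ribosome genes rose and 0 fell, 26 of 34 initiation factor genes rose and 0 fell, and 25 of 33 other translation genes rose and 0 fell. In MHets the counts were 58 and 2 of 86, 32 and 0 of 76, 23 and 0 of 34, and 23 and 0 of 33. Of all 25346 genes tested, 5582 (22.0%) were called higher and 5594 lower in MZKOs. In MHets 4914 (19.4%) were called higher and 4476 lower. fbl, the methyltransferase of box C/D particles, rose by 1.02 ± 0.10 in MZKOs (edgeR adjusted p = 9.96e-09), and larp1, which binds the start tract of ribosomal protein mRNAs, by 1.17 ± 0.10 (edgeR adjusted p = 1.42e-09). The remaining lists were divided between the directions. Of 27 TOR signalling genes 8 (29.6%) rose and 7 (25.9%) fell in MZKOs (median 0.09). In MHets 6 (22.2%) of them rose and 7 (25.9%) fell (median -0.11), so the TOR shares were not far from those of all genes. Of 16 proliferation genes 6 (37.5%) rose and 6 (37.5%) fell in each genotype. Of 16 p53 target genes 4 rose and 2 fell in MZKOs, and 1 rose and 3 fell in MHets.

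Whether MZKOs differed from MHets by another amount at 10 dpf than at 5 dpf was tested with all 21 pools fitted together. The change in log2 fold change was called above 0 for 6 of the 84 genes (7.14%) and below 0 for none, where 6.65% of all genes tested were called above 0, so the share of members was near that of all genes. They were rps25 (0.54 ± 0.14, edgeR adjusted p = 0.0126), rps27.2 (0.55 ± 0.15, adjusted p = 0.0148), rpl11 (0.57 ± 0.16, adjusted p = 0.0156), rpl6 (0.40 ± 0.13, adjusted p = 0.0405), rpl32 (0.48 ± 0.16, adjusted p = 0.0421) and rpl14 (0.49 ± 0.17, adjusted p = 0.0496). The median over the 84 genes was 0.22, against -0.01 over all genes. The count was 2 without MHet 1 of 5 dpf, 3 without MZKO 3 of 5 dpf, MHet 1 of 10 dpf or MZKO 3 of 10 dpf, and 9 without MZKO 2 of 5 dpf. rpl11 and rps25 were called with any 1 of the 12 pools left out.

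**Figure D5:**
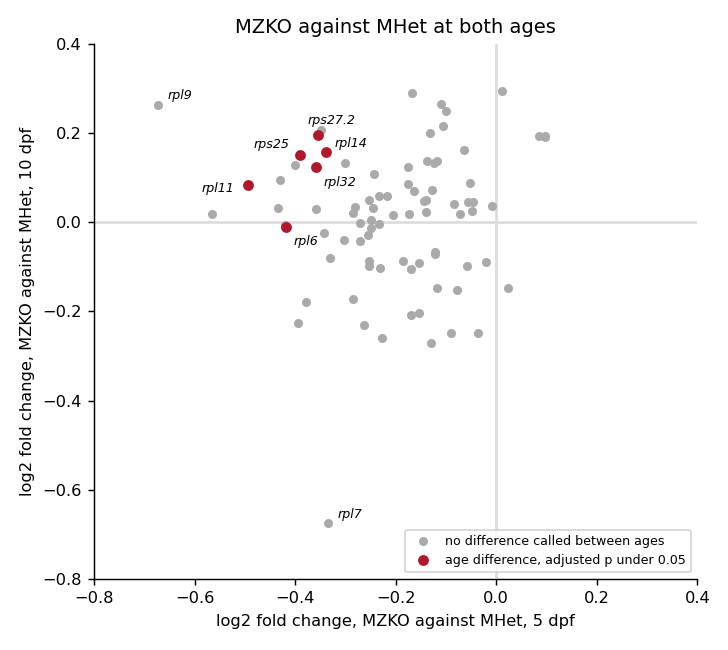
Log2 fold change of each of the 84 genes in MZKOs against MHets at 10 dpf (vertical) and 5 dpf (horizontal), with the 6 genes whose difference between the ages passed an adjusted p of 0.05 in red. Those 6 lie at or below -0.34 at 5 dpf and between -0.01 and 0.20 at 10 dpf.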

How the data were processed

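RNA of 21 pools was sequenced as directional poly(A) libraries. Reads were trimmed by 10 bases, filtered by quality and aligned with HISAT2 to GRCz11, and the authors deposited the raw counts per gene that featureCounts gave. Strand and multi-mapping options are not given in the sources used here. Counts were analysed with edgeR 4.0.16 in R 4.3.3 (filterByExpr, TMM, robust quasi-likelihood fits, Benjamini-Hochberg adjustment over all genes tested). The 5 dpf comparisons came from 1 fit of 15 pools, the 10 dpf comparison from 6 pools, and the age comparisons from all 21. The SE was derived from the F statistic (absolute log2 fold change over its square root). DESeq2 1.42.0, other scalings, filters and thresholds, the replicate number as a block, other sets of pools in the fit and each pool left out were alternatives.

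Named genes were the 5 members with the lowest p per direction among those called, or the 3 lowest where none was, with lists of reference genes, paralogs and genes linked to p53, the members with most and fewest counts, and up to 4 genes per other list. Genes used as examples of pools that stand apart, and of members not called with age, were chosen after their values were seen. Values of some genes that this rule names are not reported here. The members and lists were chosen with earlier results of these data known. Replicate pools hold different larvae, and their chi-square per gene was 6.276 to 23.03, above counting error. The labels do not say whether they came from separate clutches, so p-values measure only the spread between these pools. Same-numbered pools did not deviate together. Fits were also run on simulated counts of independent genes with a fixed dispersion. Such counts do not model genes that move together, and the outcome is not given here. Gene names are those of the deposited counts, and no coordinates or sequences are given, since no sequence of the files' build was at hand.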

Additional observations from a re-analysis of the deposited data

Results flagged for a closer look

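For 6 genes MZKOs departed from MHets by another amount at 10 dpf than at 5 dpf, by the test of that difference over all 21 pools. The difference in log2 fold change (10 dpf minus 5 dpf) was 0.54 for rps25, 0.55 for rps27.2, 0.57 for rpl11, 0.40 for rpl6, 0.48 for rpl32 and 0.49 for rpl14, with edgeR adjusted p values of 0.0126, 0.0148, 0.0156, 0.0405, 0.0421 and 0.0496 in that order. They are 7.14% of the 84 genes, near the 6.65% of all genes tested that were called above 0. With 1 of the 12 pools left out in turn, rps25 and rpl11 were called in all 12 fits, rps27.2 in 11, rpl32 in 5 and rpl6 in 4. The gene rpl14 was not followed in these fits. The ages were in separate batches, so age and batch cannot be told apart. MZKOs and MHets were compared within each batch, but at 10 dpf they had also been housed apart by genotype.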

How the results depend on the processing

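The members named for the lowest p in each comparison were followed under the alternatives. None of them changed direction, and 655 of 718 values kept their side of the threshold. The stricter thresholds use the same fold changes and so could not change a direction. Genes named for other reasons were not followed in this way. Members called in MZKOs against MHets at 5 dpf were 13, against 27 with DESeq2, 25 with only these groups fitted, 20 with the replicate number as a block, 6 at an adjusted p under 0.01 and 0 under the DEG rule. For the alternative fits counted in this paragraph, the shares of all genes called are not given. A higher count there cannot be told apart from more calls over all genes. The replicate numbers are those of different larvae and did not pair the pools (r of -0.102 to 0.151 over 30 pairs at 5 dpf, 2 of them over 0.1). In ZKOs against WTs 0 were called with all 21 pools in the fit, only these groups fitted, an adjusted p under 0.01 or the DEG rule. In MZKOs against ZKOs 9 were called with total counts, 7 at an adjusted p under 0.01 and 0 under the DEG rule. In MHets against Hets 1 was called with only these groups fitted, in the interaction 2 with DESeq2, and in MZKOs against MHets at 10 dpf 1 with DESeq2 and 1 with all 21 pools. Under the DEG rule 19 were called between ages in MHets and 51 in MZKOs. The age difference gave 13 with total counts, 12 with DESeq2, 3 with at least 10 counts in every sample, and 0 under both stricter thresholds. The share of counts in MZKOs minus MHets at 5 dpf was -0.603 percentage points, and -0.967 without the 100 other genes with most counts. Leaving those genes out raised the share in every pool, so these differences are not on the same scale. With each pool left out, the counts ranged from 3 to 13 (MZKO against MHet, 5 dpf), 6 to 22 (MZKO against ZKO), 0 to 3 (ZKO against WT), 0 to 1 (interaction), 63 to 77 (age, MHet), 76 to 77 (age, MZKO) and 2 to 9 (age difference), and were 0 in the other comparisons; the share difference ranged from -0.762 to -0.448. At 10 dpf total counts moved the median of all genes by 0.11 on the log2 scale. Start sites of the members were planned but not run, since no sequence of the files' build was at hand. With 3 pools a group, small differences are near the limit of detection, and depth is not what limits these abundant genes.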
